A study of Mus musculus with 2 samples.

Results

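In mouse megakaryocyte-erythroid progenitors (MEP), 86 of 1525 annotated genes for small nucleolar RNAs (snoRNAs) and small Cajal body-specific RNAs (scaRNAs) were detected by total RNA-seq. The genes were chosen by a rule on the measured values. A gene of type snoRNA or scaRNA in the GENCODE M21 annotation was selected when its expected count, the estimated number of reads or fragments of the gene, was at least 10 in each of the 2 libraries. The share detected was 5.64% of the annotated snoRNA and scaRNA genes, beside 28.7% of all 42462 matched genes by the same rule. The 86 genes are 77 of 1484 of type snoRNA and 9 of 41 of type scaRNA. By symbol, they are 11 of 97 Snord genes (box C/D), 24 of 41 Snora genes (box H/ACA), 3 of 5 U3 genes (Rnu3) and 4 of 9 genes with a Scarna symbol. The other 44, of 1373, carry predicted-gene symbols that start with Gm and do not name a class.

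Box C/D snoRNAs are held in a particle with the methyltransferase fibrillarin (Fbl) and guide 2′-O-methylation of ribosomal RNA by base pairing. Box H/ACA snoRNAs are held in a particle with dyskerin (Dkc1) and guide the conversion of uridine to pseudouridine. A few members of both classes, among them U3, take part in cutting the ribosomal RNA precursor rather than in modifying it. The scaRNAs carry the same boxes but act in Cajal bodies, where they guide modification of the small nuclear RNAs of the spliceosome. Most mammalian snoRNAs are cut from introns of host genes, many of which encode ribosomal proteins and translation factors. Progenitors that go on to divide and make hemoglobin need many ribosomes.

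The series holds 1 group, MEP from the marrow of C57BL/6J mice (male, 5 to 6 weeks of age), with no treatment or allele named in the labels. Replicates 1 and 2 have biosample entries of their own and the same donor entry, so the labels do not say that they came from separate mice. Both are ScriptSeq libraries of 100 ng of rRNA-depleted RNA, with a stated size range of 200 to 1000 in replicate 1 and 215 to 1000 in replicate 2 (unit not stated). With 1 group there was no comparison between conditions and no test was made. Both libraries' values are given in place of an error, as replicate 1 and then replicate 2.

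The libraries held 39919884 and 48043010 expected counts. All 8 erythroid marker genes reached 10 counts in each library, with a summed TPM of 1336 and 1332 that was mostly Car1 and Car2. TPM is a level per effective length. The 5 megakaryocyte markers also reached 10 counts in each library and summed to a TPM of 61.3 and 22.04. Of the 4 markers of cells outside the MEP gate, Ly6a and Cd3e had 0 counts in both libraries, Fcgr3 had 62 and 60, and Il7r had 56 and 450.

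The sequences below show what the boxes look like in the members on which the results turn, with matched motifs in capitals. They are transcript sequences of GENCODE M21 on mm10, 5′ to 3′ on the strand of the gene. The search took a C/D box pair as TGATGA within the first 25 bases and CTGA within the last 15, and an H/ACA tail as ACA just before the last 3 bases. Among all 1525 annotated genes, 20.3% held the C/D pair and 18.6% the ACA tail. Among the 86 detected genes the shares were 19.8% (17 genes) and 59.3% (51 genes). A match is a description of the letters and does not show which proteins bind. Gm22422 had by far the highest count and lies at chr16:56035753-56035887 on the minus strand, in an intron of Trmt10c. It ends in an ACA tail, as does the H/ACA snoRNA Snora24 (chr3:123507937-123508066, minus strand, overlapping an exon of Snhg8).
Gm22422: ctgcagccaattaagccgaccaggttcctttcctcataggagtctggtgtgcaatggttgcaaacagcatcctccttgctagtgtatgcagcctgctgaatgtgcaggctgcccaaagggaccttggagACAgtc
Snora24: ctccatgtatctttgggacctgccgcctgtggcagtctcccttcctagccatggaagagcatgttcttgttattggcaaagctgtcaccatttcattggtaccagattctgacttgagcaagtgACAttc

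The C/D examples were chosen to show the long members, which held most of this class's counts, beside the more numerous short ones. Snord17 (chr2:144265979-144266216, minus strand, in an intron of Snx5) and Snord15b (chr7:99479563-99479707, minus strand, overlapping an exon of Rps3) have 238 and 145 bases. Snord22 (chr19:8725866-8725991, plus strand, overlapping an exon of Snhg1) has box D letters and no TGATGA in the window. Snord47 (chr1:161038082-161038158, plus strand, overlapping an exon of Gas5) is the shortest member, with 77 bases. Gm23734 (chr1:127375131-127375239, plus strand, in an intron of Mgat5) carries both C/D motifs under a Gm symbol. Gm23262 (chr7:111076060-111076227, minus strand, overlapping an exon of Eif4g2) had the next highest count after Gm22422 and matched none of the motifs. Rnu3b2 (chr11:87471368-87471582, plus strand) has the same sequence as Rnu3b4, and only its CTGA matched.
Snord17: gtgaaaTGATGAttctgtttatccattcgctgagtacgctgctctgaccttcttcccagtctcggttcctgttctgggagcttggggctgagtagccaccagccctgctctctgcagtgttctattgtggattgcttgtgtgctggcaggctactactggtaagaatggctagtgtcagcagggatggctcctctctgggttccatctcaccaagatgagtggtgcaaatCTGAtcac
Snord15b: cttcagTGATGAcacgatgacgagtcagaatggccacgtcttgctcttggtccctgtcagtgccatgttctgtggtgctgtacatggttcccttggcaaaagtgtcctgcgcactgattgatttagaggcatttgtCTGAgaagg
Snord22: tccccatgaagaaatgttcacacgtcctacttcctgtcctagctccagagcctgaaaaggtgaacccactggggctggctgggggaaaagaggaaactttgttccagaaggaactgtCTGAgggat
Snord47: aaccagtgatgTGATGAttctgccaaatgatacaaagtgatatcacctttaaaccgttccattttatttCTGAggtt
Gm23734: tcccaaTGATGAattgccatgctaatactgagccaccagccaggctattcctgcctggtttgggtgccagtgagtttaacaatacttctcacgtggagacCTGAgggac
Gm23262: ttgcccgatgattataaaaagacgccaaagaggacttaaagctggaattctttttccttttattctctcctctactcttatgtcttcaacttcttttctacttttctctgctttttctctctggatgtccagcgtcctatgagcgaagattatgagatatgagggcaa
Rnu3b2: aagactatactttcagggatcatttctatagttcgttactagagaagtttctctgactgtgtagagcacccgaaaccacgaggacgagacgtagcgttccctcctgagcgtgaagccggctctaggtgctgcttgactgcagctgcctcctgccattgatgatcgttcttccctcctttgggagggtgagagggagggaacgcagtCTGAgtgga

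Detection differed with annotated length. Under 120 bases 9 of 588 annotated genes were detected (1.53%), and from 120 bases up 77 of 937 (8.22%). The detected genes had a median length of 136 bases, against 127 in those not detected, and ranged from 77 to 414. From 170 bases up the share reached 47.6% (20 of 42). Of the 97 annotated Snord genes 92 have fewer than 120 bases, and 7 of these were detected. All 41 Snora genes have 120 bases or more. Of the 5 Snord genes of that size 4 were detected, beside 24 of the 41 Snora genes (58.5%). Both libraries carry a stated lower size limit, and the part of that limit in these shares was not tested.

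**Figure D1:**
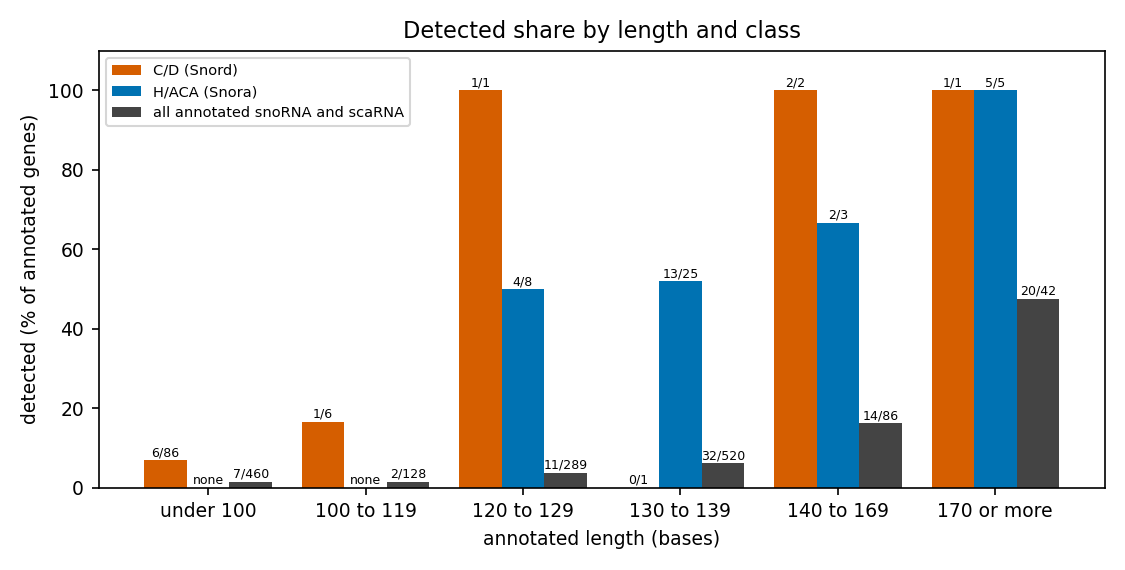
Bars show the percentage of annotated genes with at least 10 expected counts in each library (y axis) in 6 bins of annotated length in bases (x axis), for Snord genes, Snora genes and all annotated snoRNA and scaRNA genes; the numbers above the bars are detected and annotated genes. In the bin under 100 bases 6 of 86 Snord genes were detected, and from 170 bases up all 5 Snora genes and the 1 Snord gene.

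The authors' effective length, usually the number of positions at which a fragment of the library's sizes could start, was near 0 for most members. It was 0 in both libraries for the 9 members of 110 bases or fewer, and these were therefore listed at 0 TPM although their counts ran from 16.7 to 439 in replicate 1 and from 12 to 268 in replicate 2. Gm23734, with 439 and 268 counts, had the highest counts of the members listed at 0 TPM. Snord21, within the ribosomal protein gene Rpl5, had 149.65 and 247.84 counts and was listed at 0 as well. Of the 11 Snord members 7 were listed at 0 TPM, and none of the 24 Snora members was. The 7 were Snord21, Snord87, Snord8, Snord60, Snord14d, Snord47 and Snord14c. A TPM of 0 thus does not mean that no counts were assigned to these genes. Snord21, Snord60, Snord14d, Snord14c, Snord47 and Gm26247 overlap an exon of a host transcript. For them, reads of the host and of the snoRNA cannot be told apart.

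**Figure D2:**
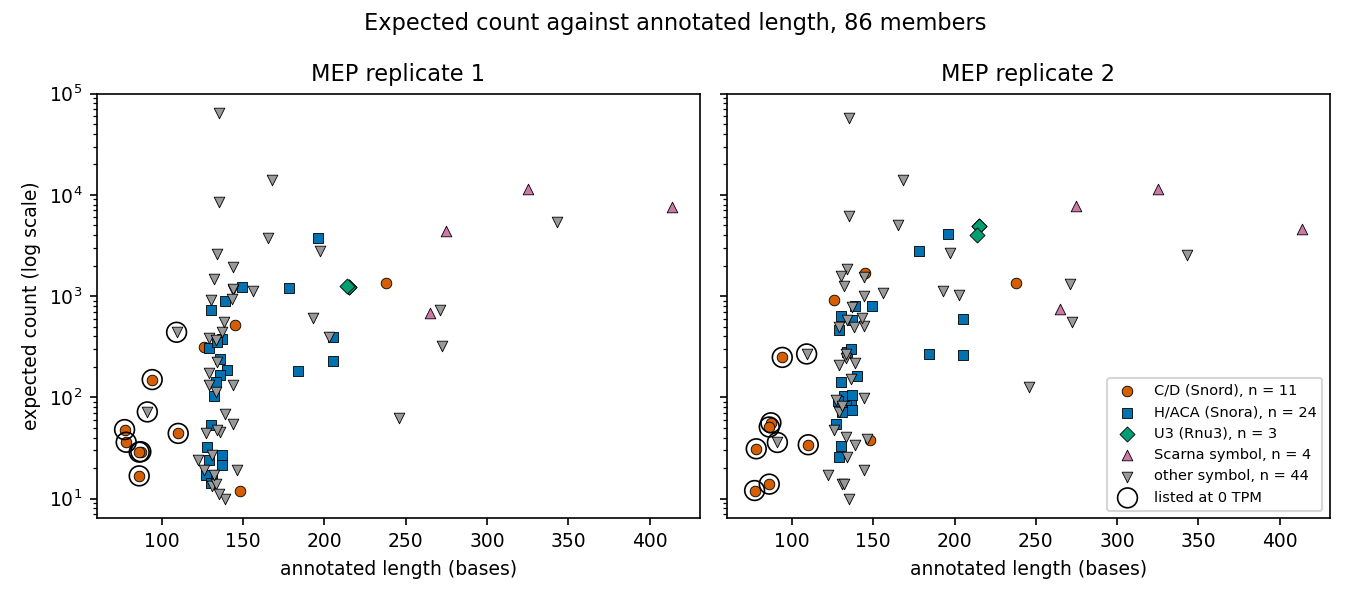
Each point is 1 of the 86 members, with annotated length in bases on the x axis and expected count on a log y axis, in MEP replicate 1 (left) and replicate 2 (right); colors and shapes give the class by symbol. The 9 circled members, all of 110 bases or fewer, are listed at 0 TPM, while their counts reach 439 and 268.

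Just above that length the effective length was a few bases. A member of 135 bases had 3.35 bases in replicate 1 and 2.86 in replicate 2, one of 215 bases had 31.01 and 29.85, and Scarna2 with 414 bases had 193.79 and 191.53. In 64 of the 86 members it was under 10 bases in both libraries. TPM divides by this effective length, so at the same count a member of 135 bases is given a far higher TPM than one of 215 bases. The highest case was Gm22422, with 64596 and 57318 counts and a TPM of 211287 and 149284. It held 0.162% and 0.119% of all counts, and 21.1% and 14.9% of all TPM. It ranked 1st of all matched genes by TPM in both libraries, and 37th and 65th by expected count.

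**Figure D3:**
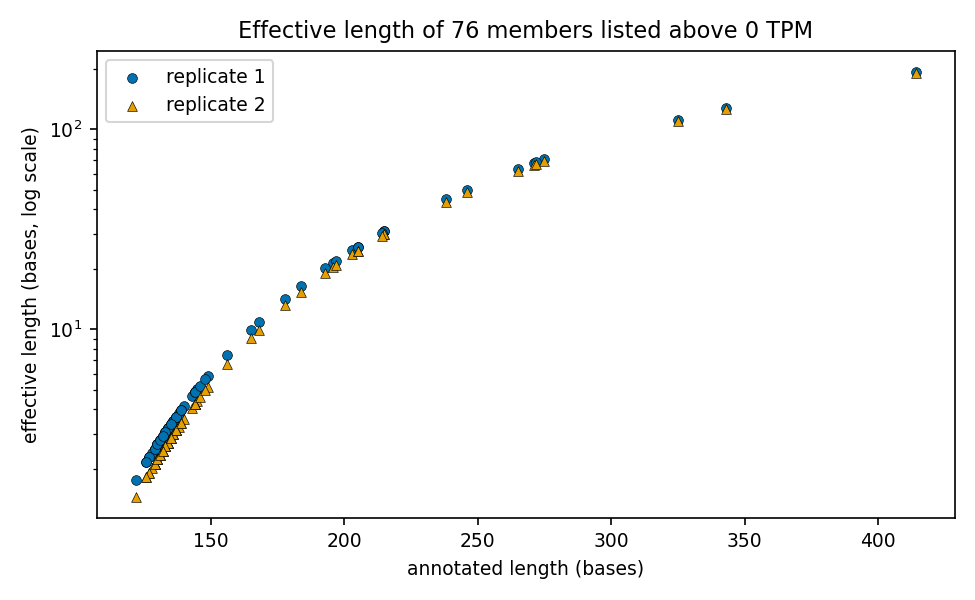
Effective length in bases (log y axis) against annotated length in bases (x axis) for the 76 members listed above 0 TPM, leaving out Snora43, whose deposited gene length differs from its annotated length; circles are replicate 1 and triangles replicate 2. At 135 bases the effective length is 3.35 and 2.86 bases, and at 414 bases 193.79 and 191.53.

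Over all members, the deposited TPM gave a much larger share than the counts. The 86 genes held 0.393% and 0.335% of expected counts, a mean of 0.364% ± 0.0408 (SD, n = 2). They held 32.4% and 24.1% of TPM, a mean of 28.3% ± 5.87 (SD, n = 2). Without Gm22422 these means were 0.224% and 10.2%. For this reason levels are also given here in CPM, expected counts divided by the library total and scaled to a total of 1000000, and as CPM per kilobase of annotated length (counts per kb), which does not use the effective length.

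The C/D and H/ACA classes did not stand in one order. By counts per kb the median of the 11 Snord members was 11.6 and 12.3, and that of the 24 Snora members was 29.1 and 25.2. The C/D minus H/ACA difference of median log2 counts per kb was -1.33 and -1.03 (SD 0.21, n = 2), and -1.46 on the mean of both libraries. With at least 20 counts asked of each library the difference was 0.74, from 7 and 21 members, so its sign turned. At 50 counts it was 1.12, from 4 and 17 members. By TPM, which leaves only 4 Snord members above 0, the difference was 1.07 and 1.49, and 1.11 on the mean of both (SD 0.30, n = 2). When Gm genes were classed by their boxes, the differences were 0.21 by counts per kb and -0.36 by TPM, again with signs turned. The members were selected on counts, and no test of the classes was made.

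Among the snoRNAs of ribosomal RNA processing, the 3 detected U3 genes stood highest by counts. U3 base pairs with the precursor and is needed for its early cuts toward 18S RNA. Rnu3a had 1260 and 3970 counts, or 147.52 and 386.15 counts per kb. Rnu3b2 had 1216 and 4900 counts, and its identical copy Rnu3b4 had 1216 and 4944. Reads of the copies cannot be told apart, and the authors' posterior SD for each was 58.7% or more of the count in replicate 1 and 53.1% or more in replicate 2. Their sum, 2432 and 9844 counts, does not depend on the split. All 3 were higher in replicate 2, each by more than 2-fold in CPM.

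Others with a processing role were lower per length. Snord22 (U22), needed for 18S RNA, had 315.27 and 904.25 counts, or 62.7 and 149.38 counts per kb. Snora73a and Snora73b (U17), H/ACA snoRNAs of the 18S pathway that share the host Snhg3, had 395.63 and 586.95 counts and 228.26 and 260.07 counts. Per kb these were 48.3 and 59.6 for Snora73a and 27.9 and 26.4 for Snora73b. The copy with more reads was the same in both libraries. U14 genes were near the threshold: Snord14d had 16.74 and 50.9 counts and Snord14c had 28.76 and 13.88, so their order turned between libraries. Snord14a, Snord14e and Snord118 (U8, needed for 28S and 5.8S RNA) had 0 counts in both libraries, where 3 counts, taken as the limit for a count of 0, are 0.0752 and 0.0624 CPM. Snord13 (U13) had 0 and 13 counts. Of 9 listed processing snoRNA genes found, apart from the Rnu3 genes, 5 were members.

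Among the other C/D members Snord17 was highest by mean count, with 1335 and 1351 counts and 140.51 and 118.15 per kb. Snord15b had 514.08 and 1698 counts, and Snord15a, in the same host Rps3, had 12 and 38. Per kb Snord15b exceeded Snord15a by 43.7-fold and 45.6-fold, at similar lengths (145 and 148 bases). Snord15b overlaps an exon of Rps3 and Snord15a does not, so reads of the host may be among those of Snord15b. The remaining short members were low. Snord87 had 29 and 56 counts, Snord8 had 44 and 34, Snord60 had 36 and 31, and Snord47 had 47.99 and 12. Gas5 is a non-coding host gene of C/D snoRNAs, and Snord47 was the only member among the 9 annotated snoRNA genes inside it. Of the 4 genes inside Rpl13a none was a member: Snord33 had 31 and 0 counts, Snord35a had 29 and 0, and Snord32a and Snord34 had 0 in both. The 4 listed genes of imprinted C/D clusters that were found, Snord116l1, Snord116l2, Snord64 and Snord107, had 0 counts in both libraries.

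The H/ACA members with a Snora symbol spanned 14.35 to 3712 counts in replicate 1 and 25.45 to 4086 in replicate 2, with medians of 182.5 and 210.53. Snora74a was highest, with 3712 and 4086 counts and 474.45 and 433.89 per kb. Snora81, within Eif4a2, followed with 1196 and 2761 counts, or 168.32 and 322.9 per kb. Snora62, within the ribosomal protein gene Rpsa, had 1233 and 806 counts, or 207.29 and 112.59 per kb. These last 2 changed places between the libraries. Snora24 had 724 and 641 counts, Snora52 had 378.11 and 575.6, Snora33 had 306 and 458, Snora64 had 350.94 and 281.72, and Snora5c had 236.93 and 303. For these 5 the libraries differed by less than 2-fold in CPM. The Snora43 gene among the members (ENSMUSG00000097052) had 895 and 795.88 counts. Its deposited length is 1951 bases in replicate 1 and 1741 in replicate 2, against 139 annotated, and its TPM was 5.67 and 3.91. Which part of that length its counts lie on was not examined, and its counts per kb use the 139 bases. Another gene named Snora43, of 127 bases at nearly the same place, had 0 and 75.32 counts and was not a member. Of the 24 Snora members 20 carried the ACA tail.

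The other 13 Snora members were lower, and several lie in genes of the translation machinery. In ribosomal protein genes, Snora7a (Rpl32) had 184 and 161 counts, Snora21 (Rpl23) 27 and 106 and Snora70 (Rpl10) 21.61 and 74.69. In translation factor genes, Snora41 (Eef1b2) had 102 and 103 counts and Snora28 (Eif5) 17 and 54. Of these 5, Snora7a and Snora41 were within 2-fold between libraries in CPM and the other 3 were more than 2-fold higher in replicate 2. In the non-coding host Snhg12, Snora16a had 165 and 89 counts, Snora44 24.15 and 25.45 and Snora61 14.35 and 32.89, and Snora9 in Snhg15 had 141.58 and 94.29. Snora16a was the only Snora member more than 2-fold lower in replicate 2. In other protein-coding hosts, Snora23 (Ipo7) had 181 and 266 counts, Snora30 (Srcap) 53 and 141 and Snora20 (the chaperonin gene Tcp1) 32 and 92.

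Most of the members' counts came from genes without a class in their symbol. The 44 Gm genes held 73.9% and 65.5% of the members' counts, and Gm22422 alone held 41.2% and 35.6%. The 5 most abundant members of any symbol in each library held 67.7% and 59.9%. By the boxes 30 of the 44 had an ACA tail and 5 the C/D pair. After Gm22422 came Gm23262, with 14150 and 13928 counts and 2110 and 1726 counts per kb. Gm23245 had 8511 and 6119 counts, or 1579 and 943.44 per kb, and its TPM was 27839 and 15937. Gm23442, in an intron of Prrc2a, had 2622 and 1862 counts and a TPM of 8966 and 5082. Gm23639, within Epb41l4aos, had 1473 and 1243 counts and a TPM of 5518 and 3734. These were the 5 members with the highest mean TPM, and all 5 stood lower in replicate 2 by both measures, within 2-fold in CPM.

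Further Gm genes had a lower mean TPM than these 5. Gm23946, in the mitochondrial import gene Timm23, had 2757 and 2686 counts, or 350.58 and 283.79 per kb. In Rpsa, Gm24044 had 1128 and 1082 counts and Gm26448 had 391 and 1020. Rpsa thus held 3 members, and 1 of them, Gm26448, was more than 2-fold higher in replicate 2 in CPM. Gm24888, in the ribosomal protein gene Rpl27a, had 923 and 1574 counts, Gm25776 in Gtf2a1 had 934 and 607, and Gm23547 in Phb2 had 720.11 and 1312. Gm24451, with an ACA tail, overlaps an exon of Nop56, the gene of a C/D core protein, and had 370 and 247 counts. The 13 Gm genes not described elsewhere had 19 to 223 counts in replicate 1 and 14 to 576 in replicate 2, with Gm26397 in Tomm20 highest in both.

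Some scaRNA members were long and stood high per length, whereas others were near the threshold. Scarna10 (U85) is a composite C/D and H/ACA guide for the U5 RNA that is annotated as a snoRNA gene. It had 11386 and 11338 counts, or 877.64 and 726.14 per kb. Scarna10 overlaps an exon of its host Ncapd2, where reads of the 2 genes cannot be told apart. Scarna2, a guide for the U2 RNA with no host gene, had 7646 and 4607 counts, or 462.64 and 231.63 per kb. Scarna13 (U93), within Snhg10, had 4358 and 7782 counts, or 396.98 and 589.02 per kb. Scarna2 was the higher of these 2 in replicate 1 and Scarna13 in replicate 2. Scarna6 had 685 and 746 counts. The 4 Scarna symbols had a median of 429.81 and 410.32 counts per kb, against 29.1 and 25.2 for the Snora members, and the ranges overlapped. Over all 9 members of gene type scaRNA the median was 79.4 and 120.64.

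The other 6 scaRNA genes carry Gm symbols. Gm22767, in an intron of Ppp1r8, had 3728 and 5050 counts, or 565.98 and 637.06 per kb. Gm22009, in an intron of Kpna4, had 5367 and 2530 counts, or 391.97 and 153.53 per kb. It was the only scaRNA member more than 2-fold lower in replicate 2 per library count, and Scarna2 was just inside that limit, at 0.501 of its replicate 1 CPM. Gm26083 had 611.87 and 1119 counts, Gm25492 had 382 and 495, Gm25395 had 321 and 552, and Gm24644 had 10 and 34. Gm24644 lay at the threshold, and its higher value in replicate 2 rests on few counts.

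Nearly every member lay inside a longer gene on its own strand: 83 of 86 (96.5%), against 591 of the 1439 annotated genes that were not detected (41.1%). The exceptions were Snora43, Scarna2 and Rnu3a. Among the undetected Snord genes 83 of 86 had a host as well. The 83 members lay in 68 different hosts, of which 12 held more than 1 member. Protein-coding genes hosted 67 members. Hosts with Rps or Rpl symbols, the ribosomal protein genes, held 16, and Eif, Eef or Pabpc hosts brought the number for ribosome and translation genes to 25. Gas5 and the Snhg genes, long non-coding hosts of snoRNAs, held 13. Of the 83 members, 45 lay in introns only. The other 38 overlapped an exon of some host transcript, where reads of the host and of the snoRNA cannot be told apart. Whether reads of unspliced host RNA are among those of the 45 was not examined.

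Members of one host did not share one level. Within Eif4a2, whose remaining member Gm26447 had 172.43 and 209.21 counts, Snora81 exceeded Gm24616 (69 and 218 counts) by 13.5-fold and 9.89-fold per kb. Within Taf1d, Gm25791 (437 and 786 counts) exceeded Gm22620 (14 and 41 counts) by 30.3-fold and 18.6-fold. All of these Eif4a2 and Taf1d members overlap an exon of their host, so reads of the host may be among theirs. Within Rpl5, Snord21 exceeded Gm22270 (17 and 14 counts) by 12.4-fold and 24.9-fold. Snord21 overlaps an exon of Rpl5 and Gm22270 does not, so reads of the host may be among those of Snord21. The members of Snx5, Snord17 and Gm26165, (556 and 490 counts) differed by 1.39-fold and 1.60-fold. Within Eif4a1, Gm25835 (1916 and 1546 counts) exceeded Gm22988 (1139 and 994.4 counts) by 1.68-fold and 1.55-fold. Here the lower member, Gm22988, was the one that overlaps an exon. Within Hspa8 the order of Snord14d and Snord14c turned between the libraries.

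**Figure D4:**
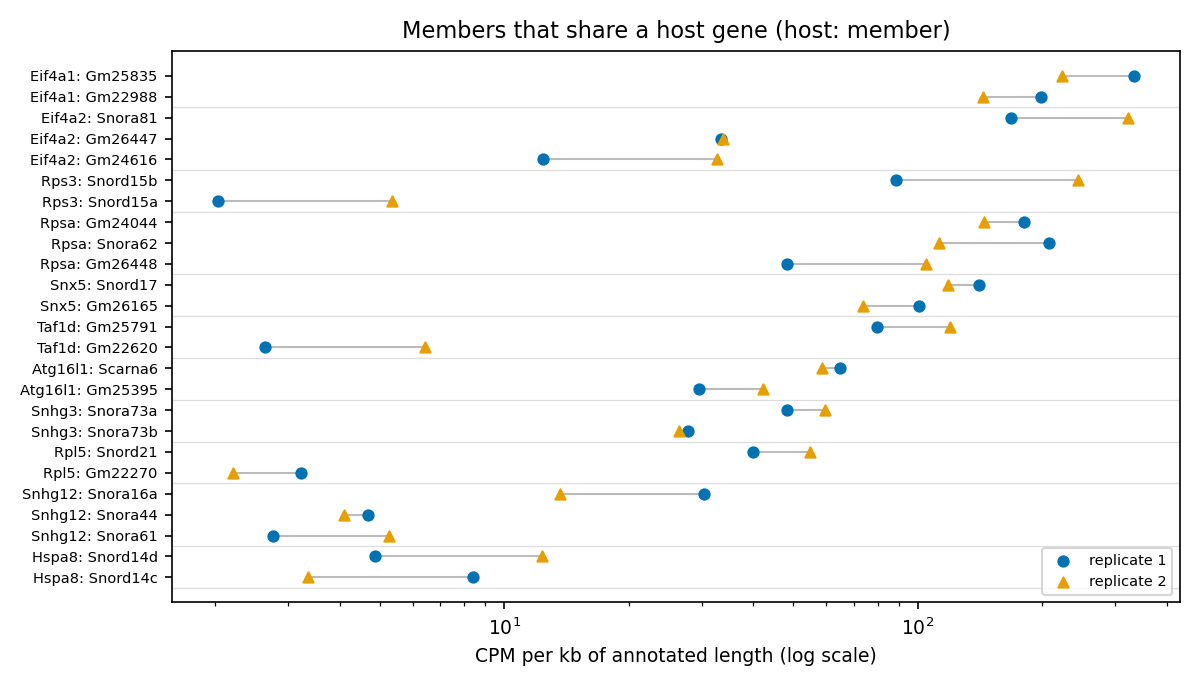
CPM per kilobase of annotated length (log x axis) for the 25 members that share 1 of 11 hosts, each row a host and a member, with circles for replicate 1, triangles for replicate 2 and a line joining them. Snord15b and Snord15a of Rps3 lie 43.7-fold and 45.6-fold apart, and only Snord15b overlaps an exon of that host. Snord17 and Gm26165 of Snx5 lie 1.39-fold and 1.60-fold apart. The U3 copies within Tex14 are not drawn.

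Among the 79 members whose host had a row in the tables, all selected on their counts, host level and member level did not run together. Spearman's rho of member counts per kb and host TPM was -0.03 in replicate 1 and -0.01 in replicate 2, a description in which members of one host share a point on one axis. The hosts of members had a median TPM of 66.3 and 59.4, against 0.08 and 0.1 for the hosts of all undetected genes. Most undetected genes have a symbol of no class, and their hosts also had a median of 0.08 and 0.1. Hosts of undetected Snord genes had a median of 62.1 and 54.8, and those of undetected Snora genes 124.17 and 103.92. Undetected genes of these 2 classes thus did not lie in hosts of low TPM by the median. Trmt10c, the host of Gm22422, had a TPM of 20.87 and 12.67, whereas Hspa8, the host of the 2 low U14 genes, had 1524 and 1622. Gas5 had 914.02 and 477.53 beside the low Snord47. Tex14 was listed at 0 in both libraries while the U3 copies annotated inside it had 4900 and 4944 counts in replicate 2; U3 genes are known to have promoters of their own. Of 64 different hosts with a row, 51 reached a TPM of 10 in both.

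The libraries agreed in rank and differed in many single members. Spearman's rho of CPM between them was 0.93 over the 86 members, which share 1 selection on counts. Replicate 2 over replicate 1 had a median log2 ratio of -0.03, beside -0.05 over all 12169 genes with at least 10 counts in each library. More than 2-fold higher in replicate 2 were 21 of 86 members (24.4%), beside 6.89% of all such genes. More than 2-fold lower were 10 (11.6%), beside 9.43%. Of these 31 members 18 had under 50 counts in a library. With at least 50 counts in each, 9 of 58 members were higher (15.5%) and 4 lower (6.90%), beside 3.90% and 6.67% of 10812 genes. The members are short and mostly low genes, and the genes beside them were not matched in level or length.

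The largest differences upward were Gm24411 (13.33 and 81.36 counts, log2 ratio 2.30), Snora68 (17 and 71 counts, 1.76), Rnu3b4 (1.76), Rnu3b2 (1.74) and Snora21 (27 and 106 counts, 1.69). Apart from the U3 copies these rest on few counts in replicate 1. Among the other members with over 300 counts in each library, those beyond 2-fold upward were Snord15b (log2 ratio 1.46), Rnu3a (1.39), Snord22 (1.25) and Gm26448 (1.12). The largest downward were Snord47 (-2.22), Gm25291 (54.03 and 19.01 counts, -1.75), Gm25848 (1181 and 508 counts, -1.48), Gm22009 (-1.35) and Snord14c (-1.29). By class, 4 of 11 Snord, 6 of 24 Snora and all 3 U3 members were more than 2-fold higher in replicate 2, beside 8 of the 44 Gm genes and none of the 4 Scarna symbols. More than 2-fold lower were 2 Snord, 1 Snora and 7 Gm genes, and none of the U3 genes or Scarna symbols.

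**Figure D5:**
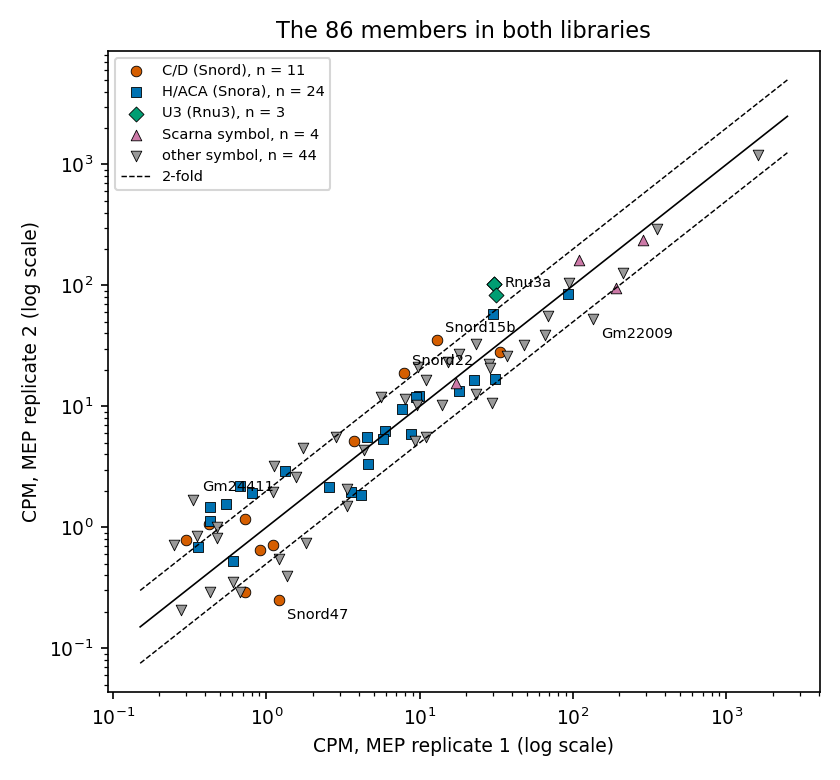
CPM in MEP replicate 1 (x axis) and replicate 2 (y axis), both on log scales, for the 86 members by class; the solid line marks equal values and the dashed lines 2-fold. The U3 genes and Snord15b lie above the upper dashed line and Gm22009 and Snord47 below the lower one, and with the pseudocount of 0.5 counts used for ratios 21 members are more than 2-fold higher and 10 more than 2-fold lower.

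Markers moved between the same libraries. The 5 megakaryocyte markers summed to 220.69 and 100.91 CPM, and 4 of the 5 were more than 2-fold lower in replicate 2. The remaining one, Gp9 (23 and 130 counts), was more than 2-fold higher in replicate 2. Of the 2 progenitor markers Cd34 had 2570 and 431 counts and Kit had 16866 and 18517. Of the 8 erythroid markers 2 were more than 2-fold higher in replicate 2, the globin genes Hbb-bs (78.9 and 1073 counts) and Hba-a1 (228.61 and 1100 counts), and none was more than 2-fold lower. The 5 granulocyte markers summed to 71.6 and 106.68 CPM, with 3 more than 2-fold higher in replicate 2, such as S100a8 (484 and 1565 counts), and 2 more than 2-fold lower, Mpo (1623 and 502 counts) and Elane (25 and 5 counts). The 4 lymphoid markers summed to 10.5 and 28.9 CPM, with Gzma at 0 and 792 counts and Cd3e at 0 in both. The part of cell composition, of the stated size range or of depth in the members' differences was not tested. In bulk RNA fewer cells of a type and less RNA per cell cannot be told apart.

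The genes for the proteins of these particles were all expressed. All 22 on the list had at least 10 counts in each library, with a median TPM of 17.3 and 14.9. Among the C/D core proteins Nop58 had a TPM of 783.09 and 556.6, Nop56 215.87 and 162.58, Snu13 83.8 and 61.98, and the methyltransferase gene Fbl 66.7 and 68.2. Nop58 was above the other 3 in both libraries. Among the H/ACA core proteins the pseudouridine synthase gene Dkc1 had 130.39 and 112.51, Nop10 63.5 and 58.6, Nhp2 47.1 and 30.4 and Gar1 15.2 and 11.04. The order Dkc1, Nop10, Nhp2, Gar1 was the same in both libraries.

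Assembly and Cajal body genes had lower medians than the core proteins, though single genes overlapped them. The 11 assembly genes had a median TPM of 12.5 and 8.2, led by Ruvbl1 at 77.3 and 66.4 and the chaperone gene Nolc1 at 51.6 and 44.4. Naf1 and Shq1, which act on H/ACA particles before Gar1 joins, had 3.71 and 2.94 and 4.95 and 3.65. The 3 Cajal body genes had a median of 4.58 and 3.4, and those of the H/ACA core 55.3 and 44.5. The genes Coil and Wrap53 had 4.58 and 3.4 and 2.6 and 3.11, and Smn1 had 18.3 and 18.7. Tgs1, which makes the trimethylguanosine cap of U3 and other RNAs, had 3466 and 1947 counts and was the only one of the 22 beyond 2-fold between libraries, with a log2 ratio of -1.10.

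At the threshold, the members with the fewest counts in their lower library were Gm24644 (10 and 34), Gm26225 (11 and 10) and Snord15a (12 and 38, level with Snord47 at 12). Just outside were Gm22154 (13 and 8), Gm24620 (7 and 10) and Snord83b (11 and 7).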

How the data were processed

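Total RNA of MEP was measured in 2 libraries of 1 group. The authors quantified each library on build mm10 with GENCODE M4, per the text files deposited with the tables; which program did so is not stated in the sources used here. Per the file headers, the deposited gene tables give an expected count (an estimated count, not normalized), a TPM, a posterior mean and SD, the gene length and effective length in bases, and interval bounds of the TPM (a signal column here, not used). Posterior mean values served as an alternative.

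Gene IDs were matched without version to GENCODE M21, and 42462 of 43346 Ensembl rows matched. CPM values use the library total of expected counts. Log2 ratios of replicate 2 over replicate 1 use a pseudocount of 0.5 counts. A host is a protein-coding or long non-coding gene that contains the member on its strand, and the one with most counts where several do. Classes follow the symbol; U3 is not counted as C/D. Medians of log2 TPM leave out members at 0. No test across samples was possible. A few sequences and a host gene are not reported here. Named genes are the 10 highest Snord and Snora genes by CPM, every scaRNA, the 5 highest by TPM, the 5 largest differences each way, the listed snoRNAs and proteins, and 3 genes on each side of the threshold; others were chosen after their values were seen. The members and lists were chosen with earlier results of these data known. Box searches, ratios and class differences were tested on simulated data. Alternatives were other thresholds, scalings (edgeR 4.0.16 TMM and DESeq2 1.42.0 size factors from expected counts rounded to whole numbers), a pseudocount of 5, box classes and single libraries. Tables were handled with pandas 2.3.3, numpy 2.4.6 and scipy 1.17.1 in Python 3.11.15, plots with matplotlib 3.10.9, and scalings with R 4.3.3. The counts carry no molecular identifiers here, so the limit of 3 counts covers counting error only.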

Additional observations from a re-analysis of the deposited data

How the results depend on the processing

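The number of detected genes stayed within 1.5 times of 86, from 58 at a threshold of 50 counts to 108. With 1 library alone it was 99 to 108, for Snord genes 13 to 16 and for Snora genes 24 to 29. The 11 Snord genes fell to 7 at 20 counts and 4 at 50; the cause is the stricter threshold, which leaves fewer genes. The C/D minus H/ACA difference by counts per kb, -1.46, became 0.74 at 20 counts, 1.12 at 50, 0.21 with box classes, and, chosen after seeing the data, -0.26 with U3 as C/D and 2.36 at lengths of 120 to 150 bases. Single libraries gave -1.33 to -1.03. By TPM, 1.11 became 2.43, 2.28 and -0.36 under the first 3 of these and 2.53 at 120 to 150 bases, and single libraries gave 1.07 to 1.49. Other causes were not tested. The share of counts was 0.224% and that of TPM 10.2% without Gm22422, and single libraries gave 0.335% to 0.393% and 24.1% to 32.4%. Members inside a gene numbered 55 at 50 counts, of 58. Members over 2-fold higher and lower in replicate 2 numbered 9 and 4 of 58 at 50 counts. Under TMM, DESeq2 size factors and the pseudocount of 5 they were 20 to 22 and 10 of 86. All genes there were 6.29% to 7.49% higher and 8.83% to 9.07% lower. Without U3 they were 18 and 10 of 83. By deposited TPM they were 19 and 8 of 77 (24.7% and 10.4%), beside 5.74% and 16.7% of all genes. The members' share lower was thus above that of all genes by CPM and below it by TPM. By deposited TPM the median log2 ratio of all genes was -0.33, against 0.01 for the members. No paired analysis was possible because there is 1 group.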

Other observations

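Some annotated snoRNA genes that failed the rule were seen in 1 library alone. Of the 1439 undetected genes 1387 had 0 counts in both libraries and 52 had a count in at least 1. In 21 genes replicate 1 had 0 counts and replicate 2 at least 10, and in 10 genes the reverse held. Among the first were Snora57 with 105 counts in replicate 2, the Snora43 gene that was not a member with 75.3, and Gm22486 with 64. Scarna8 with 62 and Gm22357, a C/D-box gene inside Gas5, with 60.2 were others. Among the second were Gm24313 with 87 counts in replicate 1, Gm24727 with 50, Snord33 with 31, Snord35a with 29 and Snord89 with 23. Against 3 counts, taken as the limit for a count of 0, Snora57 was at least 29.1-fold higher in CPM in replicate 2, and Gm24313 at least 34.9-fold higher in replicate 1. Of the 17 undetected Snora genes, 5 were of the first kind and none of the second. Of the 86 undetected Snord genes, 2 were of the first kind and 4 of the second. These genes were chosen after their values were seen. The same numbers over all matched genes are not given here, so the split is not read as particular to snoRNA genes. Replicate 2 held more expected counts (48043010, against 39919884 in replicate 1). The part of that depth in the split was not tested.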
